A study of Mus musculus with 16 samples.

Results

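Genes of one receptor family were followed across the groups: Clec4e, Clec4d, Clec4n, Clec7a, Clec4a2 and Clec5a, the myeloid C-type lectin receptors. They were taken by symbol from the platform annotation, each read by its single-symbol probe set with the highest mean over 16 arrays, with no filter on low values, and they are 6 of 18193 genes measured this way. The probe sets were chosen by their mean level over all arrays, so these levels are a description; no difference between groups entered the choice of probe set.

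Lung RNA of female BALB/c mice, an inbred laboratory strain, was hybridised to 1-colour Affymetrix mouse arrays. The 4 groups were pregnant mice given TiO2, pregnant mice given PBS, non-pregnant mice given TiO2 and non-pregnant mice given PBS, with 4 arrays each. Pregnant mice were at gestation day 14. Titanium dioxide (TiO2) particles, usually regarded as inert and here heated to remove endotoxin, were given as 50 ug in 50 uL into the nose under light anaesthesia, and the saline vehicle (PBS) went to the controls by the same route. RNA was extracted 19 hours later, and the study asked whether pregnancy alters the mild lung response to such particles. The mice carried no transgene or deletion by the labels, and their age is not given. The labels list 4 samples a group without saying that each is 1 mouse, so the p-values measure the spread between these samples. Total lung RNA mixes all cells of the organ, so that more cells of a type and more RNA per cell cannot be told apart in any value below.

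C-type lectin receptors are surface proteins with which macrophages, monocytes, neutrophils and dendritic cells bind sugars and lipids of fungi and bacteria and material from dying cells. Mincle, MCL and Dectin-2 have almost no signalling tail of their own and work through the adaptor Fc receptor gamma chain, whereas Dectin-1 carries a tyrosine motif in its own tail, and MDL-1 uses the adaptors DAP12 and DAP10. All of these converge on the kinase Syk and, through Card9, on NF-kB and cytokine genes such as Il1b, Tnf and Il6. DCIR, the product of Clec4a2, has an inhibitory motif and recruits phosphatases instead.

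The 6 genes lie on mouse chromosome 6, and 3 of them are immediate neighbours among coding genes, in the order Clec4n, Clec4d, Clec4e. Clec4a2 lies between Clec4b1 and Clec4b2, Clec7a between Clec1a and Olr1, and Clec5a between Olfr460 and Tas2r138. RefSeq promoters of GRCm38.p6, from 250 bases before to 50 bases after the start, were at hand for 5 of the 6 genes. Those of Clec4e and Clec4d are printed because these neighbours had the largest differences of the 6 with pregnancy, that of Clec7a because it was the third gene called, and that of Clec5a because its level did not separate the groups. Capitals mark GAGGAA on either strand (TTCCTC where it lies on the opposite strand), the core of the sites bound by PU.1, the factor of myeloid cell identity. The 4 sequences are written 5′ to 3′ on the strand of the gene.
Clec4e, chr6:123289822-123290121, minus strand: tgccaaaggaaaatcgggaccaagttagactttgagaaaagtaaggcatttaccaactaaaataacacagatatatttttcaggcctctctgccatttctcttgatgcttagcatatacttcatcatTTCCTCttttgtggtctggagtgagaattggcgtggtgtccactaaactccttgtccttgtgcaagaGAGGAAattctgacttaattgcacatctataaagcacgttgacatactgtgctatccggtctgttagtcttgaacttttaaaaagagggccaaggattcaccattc
Clec4d, chr6:123261857-123262156, plus strand: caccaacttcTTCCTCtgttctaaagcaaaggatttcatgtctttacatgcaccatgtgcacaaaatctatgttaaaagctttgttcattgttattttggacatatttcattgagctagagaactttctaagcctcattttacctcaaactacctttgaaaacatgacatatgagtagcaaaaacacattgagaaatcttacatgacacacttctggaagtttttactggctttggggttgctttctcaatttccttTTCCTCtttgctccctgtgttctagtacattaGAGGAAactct
Clec7a, chr6:129472736-129473035, minus strand: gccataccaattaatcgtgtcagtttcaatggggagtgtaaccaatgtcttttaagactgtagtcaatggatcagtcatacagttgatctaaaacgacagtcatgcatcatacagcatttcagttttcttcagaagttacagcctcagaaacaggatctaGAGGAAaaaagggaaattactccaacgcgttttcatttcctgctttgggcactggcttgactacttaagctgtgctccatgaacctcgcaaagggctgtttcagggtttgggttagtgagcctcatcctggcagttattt
Clec5a, chr6:40585756-40586055, minus strand: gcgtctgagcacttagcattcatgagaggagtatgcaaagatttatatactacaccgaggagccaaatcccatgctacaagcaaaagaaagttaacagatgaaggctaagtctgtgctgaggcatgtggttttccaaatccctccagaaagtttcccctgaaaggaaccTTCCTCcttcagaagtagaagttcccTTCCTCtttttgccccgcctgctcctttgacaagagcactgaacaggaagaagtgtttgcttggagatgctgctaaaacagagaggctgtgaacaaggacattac
GAGGAA occurred 2 times in the Clec4e window, 3 times in that of Clec4d, 1 time in that of Clec7a and 2 times in that of Clec5a, and it was not found in the Clec4a2 window. Of 32851 promoter windows of this length in the table, 28.3% hold it, so that it is a common string. TTGCNNAA, the C/EBP core, was found in the Clec4e window alone of these 5, against 10.8% of all windows, and TGANTCA, the AP-1 core, in the Clec4a2 window alone, against 7.81%. Both strands were searched, the 3 strings were picked after the sequences had been seen, and a match describes letters only. Any part of these strings in the differences between groups was not tested.

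Of the 16 arrays, 6 call for care before the values are read. Non-pregnant PBS replicate 2 has conflicting labels, one of which calls the mouse pregnant. Non-pregnant PBS replicates 3 and 4 held thymus transcripts, with Prss16, a thymic epithelial protease, at 8.98 and 9.72 log2 against 6.32 or less on the others, and pregnant TiO2 replicate 2 lacked squamous and muscle transcripts, with Krt13 at 5.21 log2 against 10.7 or more elsewhere. Glycam1, a mucin-like glycoprotein of lymph node venules, was at 4.14 and 4.60 log2 on non-pregnant TiO2 replicates 1 and 4 and at 4.15 log2 on pregnant TiO2 replicate 2, against 8.06 log2 or more on the others. The lung genes Sftpc, the surfactant protein of alveolar type 2 cells, and Scgb1a1, the club cell secretory protein, were at 13.1 log2 or more on each array, near the top of the scale, where normalization leaves little room for arrays to differ. The ratio of 3′ to 5′ signal of Actb, a check of RNA length, was 1.33 to 1.47 in pregnant TiO2, 1.29 to 1.51 in pregnant PBS, 1.30 to 1.39 in non-pregnant TiO2 and 1.37 to 1.46 in non-pregnant PBS arrays.

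Clec4e and Clec4d were higher in pregnant than in non-pregnant lung, Clec7a was higher by a smaller amount, Clec4n and Clec4a2 were above in their means without passing the test, and Clec5a did not separate the groups. TiO2 changed none of the 6 past the threshold in either state. Levels are log2(normalized intensity + 16) after quantile normalization, differences are on that scale with the standard error (SE) of the limma fit, and a gene is called at a Benjamini-Hochberg adjusted p under 0.05 over all 18193 genes. This scale understates the differences of dim genes, and levels of different genes cannot be ranked on it.

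**Figure D1:**
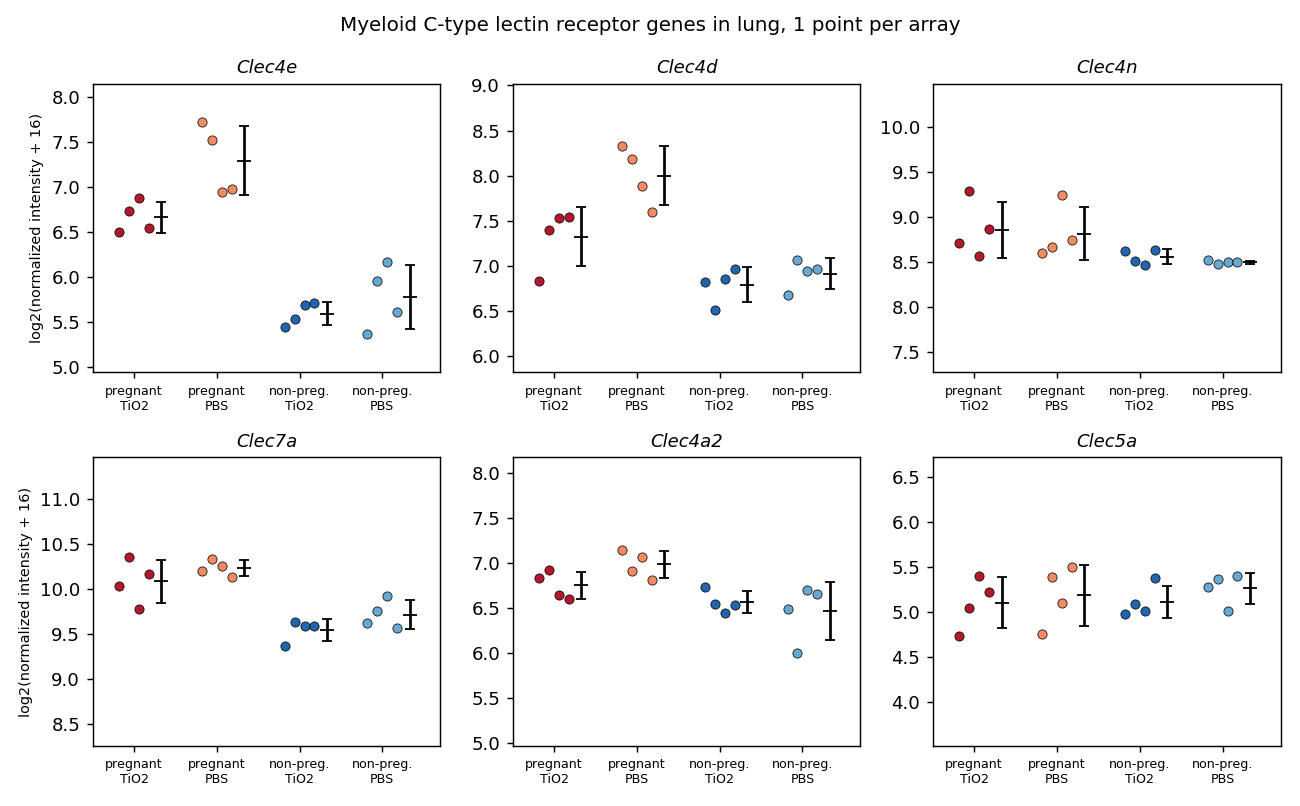
Level of each of the 6 genes, as log2(normalized intensity + 16) on the vertical axis, on each of 16 arrays (1 point each) in 4 groups of 4; the bar beside each group is its mean and SD, and every panel spans the same number of log2 units. All 8 pregnant arrays lie above all 8 non-pregnant ones for Clec4e, and all 4 groups overlap for Clec5a.

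Clec4e encodes Mincle, the receptor for mycobacterial cord factor and for a nuclear protein released by dying cells, and its RNA is strongly inducible in macrophages. Its levels in pregnant mice given TiO2 were 6.50, 6.73, 6.88 and 6.55 log2, and those in pregnant mice given PBS were 7.72, 7.51, 6.95 and 6.98 log2. In non-pregnant mice given TiO2 they were 5.44, 5.53, 5.69 and 5.71 log2, and in non-pregnant mice given PBS 5.37, 5.95, 6.16 and 5.61 log2. The lowest pregnant array was thus above the highest non-pregnant one, a separation of 8 against 8 arrays that 0.401% of all genes showed in that direction. As normalized intensity, Clec4e averaged 85.8 ± 12.4 in pregnant TiO2, 145 ± 43.1 in pregnant PBS, 32.4 ± 4.32 in non-pregnant TiO2 and 40.0 ± 13.5 in non-pregnant PBS mice (SD, n = 4 each).

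Pregnant exceeded non-pregnant lung in Clec4e by 1.07 ± 0.19 log2 after TiO2 (2.10-fold, limma adjusted p = 0.0199). After PBS the difference was 1.51 ± 0.19 log2 (2.86-fold, limma adjusted p = 0.00292). Averaged over both exposures it was 1.29 ± 0.13 log2 (limma adjusted p = 0.000215), the fifth lowest p of all genes. The other Clec4e probe set, a dimmer one, gave 0.93 ± 0.20 log2 after TiO2 and 1.23 ± 0.20 log2 after PBS.

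Clec4d, the neighbour of Clec4e, encodes MCL, also called Dectin-3, which pairs with Mincle at the cell surface and aids its expression there. It was measured at 6.84, 7.40, 7.52 and 7.54 log2 in pregnant mice given TiO2 and at 8.33, 8.18, 7.89 and 7.60 log2 in pregnant mice given PBS. The non-pregnant mice had 6.82, 6.51, 6.85 and 6.97 log2 after TiO2 and 6.67, 7.07, 6.94 and 6.97 log2 after PBS. Of the 8 pregnant arrays, 7 were above every non-pregnant array, the exception being pregnant TiO2 replicate 1. The difference with pregnancy was 0.54 ± 0.18 log2 after TiO2, where the groups overlapped and the test was not passed (limma adjusted p = 0.160). After PBS it was 1.09 ± 0.18 log2 (2.12-fold, limma adjusted p = 0.0116), and over both exposures 0.81 ± 0.12 log2 (limma adjusted p = 0.00294). The Clec4d probe set, like the one used for Clec4n, is of the kind that can read more than 1 transcript, so part of its signal may come from a related RNA.

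Clec7a encodes Dectin-1, the receptor for fungal beta-glucan. Its levels were 10.04, 10.35, 9.78 and 10.17 log2 in pregnant TiO2 and 10.20, 10.34, 10.26 and 10.13 log2 in pregnant PBS mice, against 9.37, 9.63, 9.59 and 9.59 log2 in non-pregnant TiO2 and 9.62, 9.76, 9.92 and 9.56 log2 in non-pregnant PBS mice. Within each exposure every pregnant array was above every non-pregnant one, and across exposures 7 of the 8 pregnant arrays were above all non-pregnant arrays, with pregnant TiO2 replicate 3 below the highest of these. The difference was nearly the same size after TiO2, at 0.54 ± 0.12 log2 (limma adjusted p = 0.0489), and after PBS, at 0.52 ± 0.12 log2 (limma adjusted p = 0.0704), although the first lies just inside and the second just outside the threshold. Over both exposures it was 0.53 ± 0.08 log2 (1.44-fold, limma adjusted p = 0.00332).

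Clec4n, next to Clec4d, encodes Dectin-2, which binds mannose-rich fungal walls. Its levels in pregnant lung were 8.71, 9.29, 8.57 and 8.86 log2 after TiO2 and 8.60, 8.67, 9.25 and 8.74 log2 after PBS. Those in non-pregnant lung were 8.62, 8.51, 8.47 and 8.64 log2 after TiO2 and 8.52, 8.48, 8.50 and 8.50 log2 after PBS. A single high array in each pregnant group, TiO2 replicate 2 and PBS replicate 3, stood above the rest. The difference over both exposures was 0.31 ± 0.11 log2 (limma adjusted p = 0.160), and its other probe set gave 0.35 ± 0.10 log2. Its 95% interval ran from 0.08 to 0.53 log2, so that the gene is not shown to be level between the states.

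Clec4a2 encodes DCIR, the inhibitory member. It was at 6.84, 6.92, 6.65 and 6.60 log2 in pregnant TiO2 and 7.15, 6.92, 7.07 and 6.81 log2 in pregnant PBS mice, against 6.73, 6.54, 6.45 and 6.53 log2 in non-pregnant TiO2 and 6.49, 6.00, 6.70 and 6.66 log2 in non-pregnant PBS mice. The lowest of all these values belongs to non-pregnant PBS replicate 2, the array with conflicting labels. The difference was 0.19 ± 0.14 log2 after TiO2 (limma adjusted p = 0.554) and 0.52 ± 0.14 log2 after PBS (limma adjusted p = 0.150), and over both exposures 0.35 ± 0.10 log2 (limma adjusted p = 0.0788). Without the 3 arrays that differed in thymus, squamous or muscle transcripts, the call over both exposures was made (0.43 log2, limma adjusted p = 0.0318), as it was without non-pregnant PBS replicate 3 alone (limma adjusted p = 0.0408) and with the filter on low values (limma adjusted p = 0.0497). The probe sets disagree, since the other Clec4a2 probe set gave 0.12 ± 0.17 log2 after TiO2 and -0.03 ± 0.17 log2 after PBS, and it was dim, with a mean of 5.17 log2. A further probe set annotated to both Clec4b1 and Clec4a2 differed by 0.07 log2 after TiO2 and 0.77 log2 after PBS and was not tested, because it names no single gene.

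Clec5a encodes MDL-1, the DAP12-coupled receptor known as a sensor of dengue virus. Its levels were 4.73, 5.05, 5.40 and 5.23 log2 in pregnant TiO2 and 4.75, 5.39, 5.10 and 5.50 log2 in pregnant PBS mice, against 4.98, 5.09, 5.01 and 5.37 log2 in non-pregnant TiO2 and 5.28, 5.36, 5.02 and 5.40 log2 in non-pregnant PBS mice. All 16 values were below the median of their arrays, and Clec5a is the one gene of the 6 that would not pass a filter on low values. Its difference over both exposures was -0.05 ± 0.12 log2 (limma adjusted p = 0.903), with a 95% interval from -0.30 to 0.21 log2. At so low a signal the scale compresses differences, and whether this hides one in Clec5a was not tested.

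**Figure D2:**
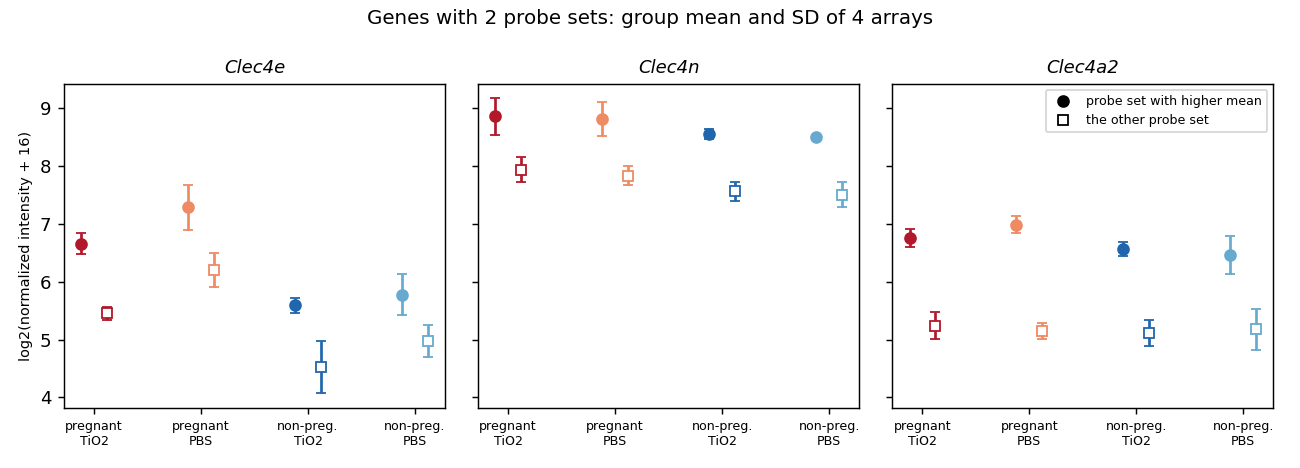
Group means and SD (4 arrays each) of both single-symbol probe sets of Clec4e, Clec4n and Clec4a2, as log2(normalized intensity + 16); filled circles are the probe sets used and open squares the dimmer ones. Both probe sets of Clec4e and of Clec4n are higher in the pregnant groups, while the dimmer Clec4a2 probe set is level.

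Counted together, 2 of the 6 genes were called higher in pregnant lung after TiO2 (Clec4e and Clec7a), where 0.588% of all genes were, and 2 after PBS (Clec4e and Clec4d), where 0.418% were. In the mean over both exposures 3 of the 6 were called higher and none lower, against 1.76% of all genes called higher and 0.544% lower. The median difference of the 6 was 0.42 log2 after TiO2 and 0.52 log2 after PBS, beside medians of 0.03 and 0.00 log2 over all genes. Pregnant and non-pregnant arrays did not overlap, with pregnant higher, in 2 of the 6 genes after TiO2 (7.48% of all genes) and in 5 of the 6 after PBS (2.92% of all genes). These counts describe 6 genes that were chosen with earlier results of these data known.

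**Figure D3:**
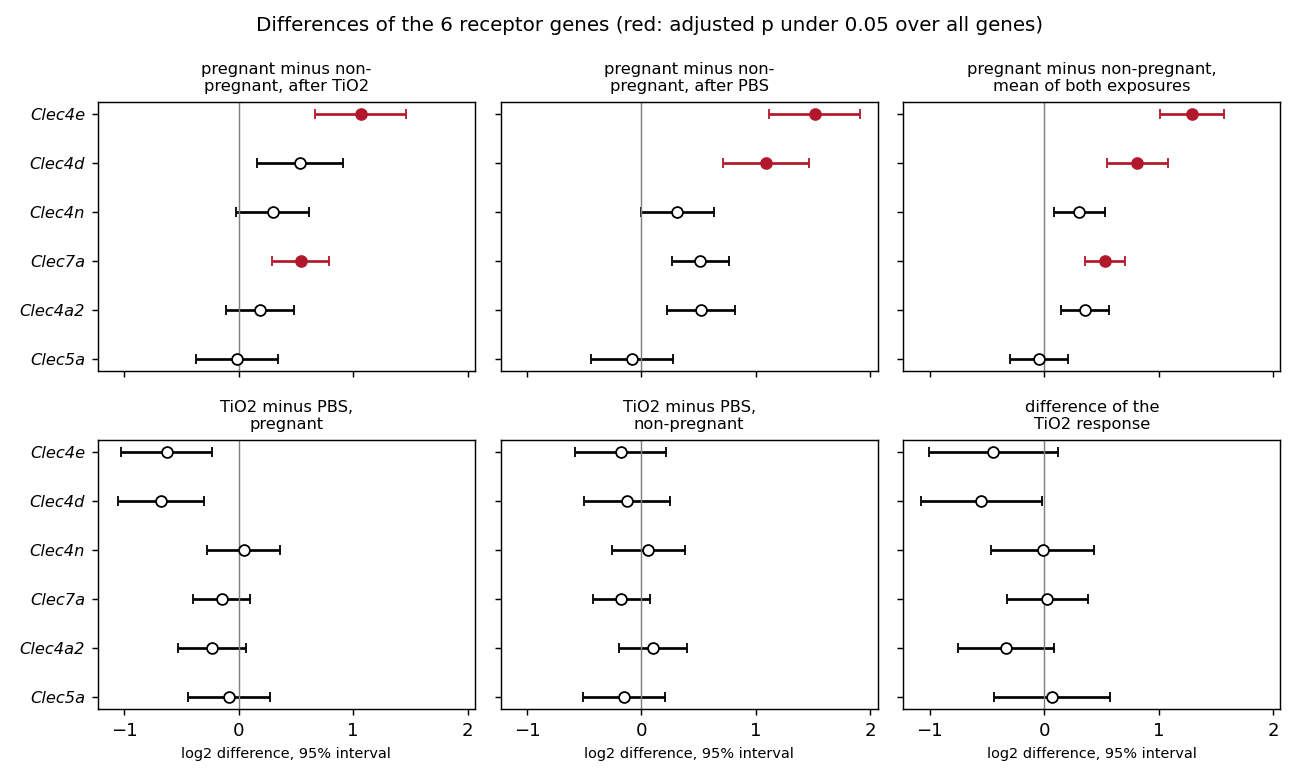
Difference of each of the 6 genes (points, log2 units on the horizontal axis) with its 95% interval (bars) in 6 comparisons; filled red points passed an adjusted p of 0.05 over all genes. Clec4e and Clec4d lie farthest to the right in the pregnancy comparisons after PBS and farthest to the left for TiO2 in pregnant mice, where none passed.

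The calls rest on the placement of 1 array and on the shared spread. With non-pregnant PBS replicate 2 counted as pregnant, no gene at all was called after PBS and only Clec4e kept its call over both exposures (1.19 log2, limma adjusted p = 0.0321). With that array left out Clec4e and Clec4d stayed called after PBS (1.59 log2 with limma adjusted p = 0.00940, and 1.14 log2 with limma adjusted p = 0.0277). With only the arrays of the comparison in the fit, both missed the threshold after PBS (limma adjusted p = 0.0607 for each). The Clec4e call after TiO2 was lost without pregnant TiO2 replicate 3 or 4, or without non-pregnant TiO2 replicate 1, 2 or 3 (limma adjusted p from 0.0515 to 0.0835), and that of Clec7a held in 7 of 28 other settings. Clec7a after PBS was called in 6 of 28 other settings (lowest limma adjusted p = 0.0374). Without the 2 non-pregnant TiO2 arrays low in Glycam1, a setting added after the data had been seen, neither call after TiO2 was made (1.04 log2 for Clec4e with limma adjusted p = 0.211, and 0.48 log2 for Clec7a with limma adjusted p = 0.348), while Clec4e, Clec4d and Clec7a stayed called over both exposures. The Clec4e call after TiO2 was also lost with the dimmer probe set (limma adjusted p = 0.0728), on values as deposited (limma adjusted p = 0.280) and with the conflicting array as pregnant (limma adjusted p = 0.119), and Clec4d after PBS was lost on values as deposited (1.21 log2, limma adjusted p = 0.0823). When the 3 arrays that differed in thymus, squamous or muscle transcripts were dropped, the difference after TiO2 was 1.03 log2 for Clec4e (limma adjusted p = 0.0335) and 0.45 log2 for Clec7a (limma adjusted p = 0.0667). After PBS and without those arrays it was 1.61 log2 for Clec4e (limma adjusted p = 0.00845), 1.12 log2 for Clec4d (limma adjusted p = 0.0466) and 0.73 log2 for Clec4a2, which was then called (limma adjusted p = 0.0422).

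The response to the particles was asked of each pregnancy state by setting TiO2 against PBS. In pregnant mice Clec4e was at 6.66 ± 0.17 log2 after TiO2 and 7.29 ± 0.39 log2 after PBS, and Clec4d at 7.32 ± 0.33 log2 after TiO2 and 8.00 ± 0.33 log2 after PBS (SD, n = 4 each). All 4 TiO2 arrays lay below all 4 PBS arrays in both genes, as in 1.96% of all genes. Neither difference passed the test, at -0.63 ± 0.19 log2 for Clec4e (limma adjusted p = 0.706) and -0.67 ± 0.18 log2 for Clec4d (limma adjusted p = 0.607). No gene on the array passed it in this comparison by limma (0%), while 1076 had an unadjusted p under 0.05. The other 4 receptors differed by -0.24 to 0.05 log2 in pregnant mice, with groups that overlapped.

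In non-pregnant mice the 6 differences between TiO2 and PBS ran from -0.18 to 0.10 log2, with overlapping groups and limma adjusted p of 0.716 or more, where 0.0055% of all genes were called. Clec4e was at 5.59 ± 0.13 log2 after TiO2 and 5.77 ± 0.35 log2 after PBS, and Clec4d at 6.79 ± 0.19 log2 after TiO2 and 6.91 ± 0.17 log2 after PBS (SD, n = 4 each). The TiO2 response of pregnant minus that of non-pregnant mice was -0.45 ± 0.26 log2 for Clec4e (limma adjusted p = 0.636) and -0.55 ± 0.25 log2 for Clec4d (limma adjusted p = 0.548), so that a difference between the states in the response was not shown. For the other 4 genes it lay between -0.34 and 0.07 log2, and 0.0055% of all genes were called. The pregnancy differences after PBS and the TiO2 differences in pregnant mice share the pregnant PBS arrays, and a high level on those arrays enters both.

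Among the 6, Clec4e and Clec4d followed each other most closely over the 16 arrays, with a Pearson r of 0.93, and of 0.68 once each group mean was taken away. Clec4e and Clec7a had an r of 0.87 over the arrays and 0.30 within groups, and Clec4n and Clec7a had 0.67 and 0.48. These were the pairs with the highest r within groups. The remaining pairs ran from 0.27 (Clec4n and Clec4a2) down to -0.54 (Clec4a2 and Clec5a) within groups, most of them below 0. Over the 16 arrays Clec5a had an r between -0.40 and 0.05 with the other 5. These values describe 16 arrays that share the normalization and the group differences.

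Of 12361 genes above the array median on at least 4 arrays, the 3 most like Clec4e over the 16 arrays were Il1b (r = 0.97), the cytokine interleukin 1 beta, Wfdc17 (r = 0.95) and Slc2a3 (r = 0.95), a glucose transporter. Clec4d was most like Pla2g7 (r = 0.95), which encodes platelet-activating factor acetylhydrolase, Ccr1 (r = 0.95), a chemokine receptor, and Slfn4 (r = 0.95). Clec7a was most like Slc15a3 (r = 0.97), a peptide transporter, Fcer1g (r = 0.94) and AB124611 (r = 0.93). Clec4n came closest to Igsf8 (r = 0.82), Cybb (r = 0.81), the catalytic unit of the phagocyte oxidase, and Cd200r4 (r = 0.81). Clec4a2 came closest to Igsf6 (r = 0.91), Gm15050 (r = 0.86) and Donson (r = 0.86), and Clec5a to Lig3 (r = 0.82), Rgl3 (r = 0.80) and Ppil2 (r = 0.79). The mean of the 6 receptors was most like Il1b (r = 0.97), followed by Pla2g7 (r = 0.95), Slc2a3 (r = 0.95), Plek (r = 0.94) and Themis2 (r = 0.94). All genes named here were picked as the highest of 12361 values of r, so some high r is found for any pattern over 16 arrays. The values for Clec4n and Clec5a, from 0.79 to 0.82, were the lowest of these, and Clec5a was below the array median on all 16 arrays. A shared regulation was not tested.

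The adaptors that carry the signal of these receptors were higher in pregnant lung in part. Of 11 measured signalling genes, 3 were called higher over both exposures and none lower, against 1.76% of all genes called higher and 0.544% lower. Fcer1g, the gamma chain shared by Mincle, MCL and Dectin-2, was at 9.06 ± 0.18 log2 in pregnant TiO2 and 9.41 ± 0.13 log2 in pregnant PBS mice, against 8.48 ± 0.12 log2 in non-pregnant TiO2 and 8.61 ± 0.33 log2 in non-pregnant PBS mice (SD, n = 4 each). It differed by 0.69 ± 0.10 log2 over both exposures (limma adjusted p = 0.00226). Fgr, a kinase of the Src family, differed by 0.57 ± 0.09 log2 (limma adjusted p = 0.00377), and Tyrobp, which encodes DAP12, by 0.51 ± 0.09 log2 (limma adjusted p = 0.00631). After PBS, Fcer1g (0.79 ± 0.14 log2) and Fgr (0.75 ± 0.13 log2) were called, and none of the 11 was called after TiO2. Over all genes, 0.418% were called higher after PBS and 0.588% after TiO2. Syk, the kinase on which the receptors other than DCIR converge, differed by 0.36 ± 0.09 log2 without passing (limma adjusted p = 0.0641). The median of the 11 was 0.11 log2, beside 0.01 log2 over all genes.

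Neither of the phosphatases most tied to DCIR passed the test: Ptpn6, which encodes SHP-1, differed by 0.39 ± 0.11 log2 over both exposures (limma adjusted p = 0.0682), and Ptpn11 by -0.02 ± 0.05 log2. Inpp5d, which encodes the lipid phosphatase SHIP1, differed by 0.26 ± 0.08 log2 (limma adjusted p = 0.132).

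Of 19 other measured C-type lectin genes, 2 were called higher in pregnant lung over both exposures and none lower, with a median of 0.17 log2. Over all genes, 1.76% were called higher and 0.544% lower. Clec1b encodes CLEC-2, the podoplanin receptor of platelets. It was at 8.26 ± 0.15 log2 in pregnant TiO2 and 8.23 ± 0.16 log2 in pregnant PBS mice, against 7.16 ± 0.28 log2 in non-pregnant TiO2 and 7.40 ± 0.09 log2 in non-pregnant PBS mice (SD, n = 4 each). The difference was 1.09 ± 0.13 log2 after TiO2 (limma adjusted p = 0.00684) and 0.83 ± 0.13 log2 after PBS (limma adjusted p = 0.00915). Clec4a3, a close relative of Clec4a2, differed by 0.41 ± 0.12 log2 after TiO2 (limma adjusted p = 0.118) and by 0.81 ± 0.12 log2 after PBS (limma adjusted p = 0.00529). Platelet markers moved beside Clec1b, since 6 of 7 measured were called higher in pregnant lung over both exposures, against 1.76% of all genes. Their mean ran from 7.40 to 7.80 log2 in pregnant TiO2, 7.68 to 7.91 log2 in pregnant PBS, 6.50 to 7.19 log2 in non-pregnant TiO2 and 6.91 to 7.07 log2 in non-pregnant PBS arrays, and their part in the Clec1b difference was not tested. Clec4a1, Clec4a4, Clec4b2, Clec9a and Clec12a were not analysed here.

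Of 18 cytokine and inflammasome genes downstream of these receptors, 2 were called higher over both exposures and none lower, with a median of 0.26 log2. Over all genes, 1.76% were called higher and 0.544% lower. Only 9 of the 18 would pass a filter on low values, and the scale understates differences of the dim ones. Il1b was at 8.58 ± 0.12 log2 in pregnant TiO2 and 9.20 ± 0.22 log2 in pregnant PBS mice, against 7.42 ± 0.17 log2 in non-pregnant TiO2 and 7.82 ± 0.31 log2 in non-pregnant PBS mice (SD, n = 4 each). It exceeded non-pregnant lung by 1.15 ± 0.15 log2 after TiO2 (limma adjusted p = 0.00684) and by 1.38 ± 0.15 log2 after PBS (limma adjusted p = 0.00182). Il1a differed by 0.38 ± 0.08 log2 over both exposures (limma adjusted p = 0.0243). In none of these 4 lists was a gene called for TiO2 in either state or for the difference of the responses.

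**Figure D4:**
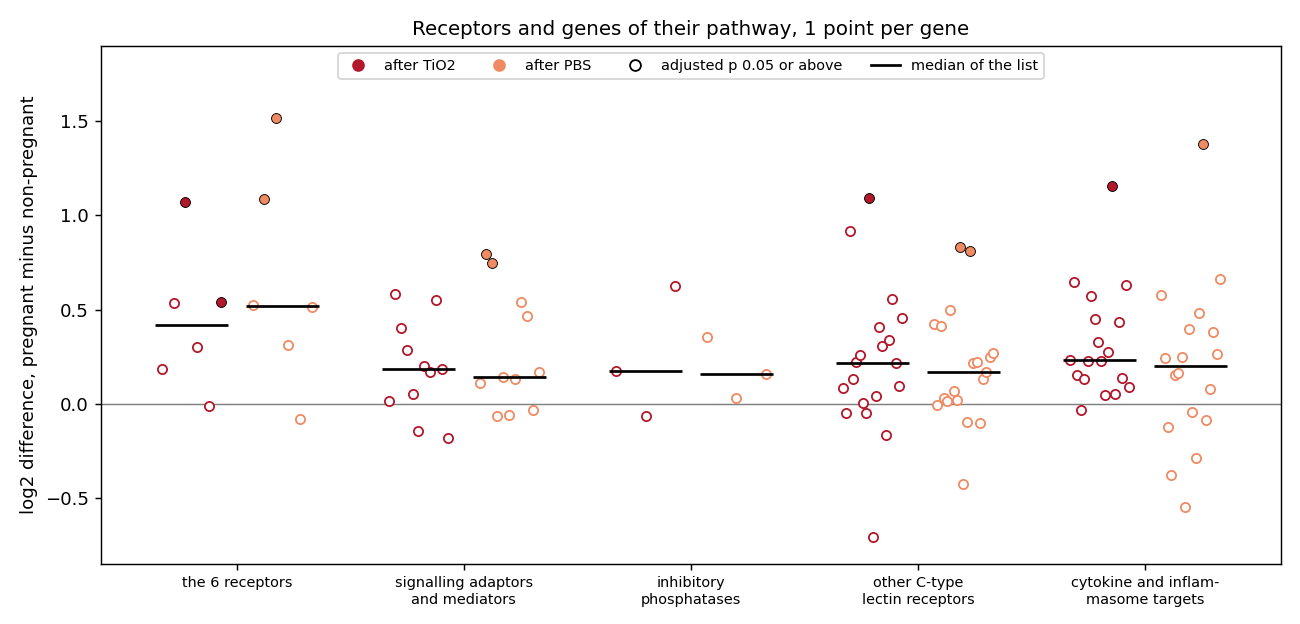
Difference between pregnant and non-pregnant lung (log2 units, vertical axis) of each of the 6 receptors and of the genes in 4 pathway lists, after TiO2 (left, dark red) and after PBS (right, orange); filled points passed an adjusted p of 0.05 over all genes and black lines are list medians. In each pathway list most points lie between -0.5 and 0.7, and Il1b and Clec1b are the highest.

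Some markers of neutrophils, monocytes and macrophages were called higher in pregnant lung as well, while no dendritic cell marker was called. Over all genes, 1.76% were called higher over both exposures. Over both exposures 9 of 17 neutrophil markers were called higher in pregnant lung, among them S100a9 (1.31 ± 0.15 log2), a subunit of calprotectin, Csf3r (0.96 ± 0.13 log2), the G-CSF receptor, and Trem3 (0.55 ± 0.07 log2). The other 8 were not called, with a lowest difference of -0.33 log2, and 15 of the 17 lay above 0. The mean of the neutrophil list ran from 7.28 to 7.60 log2 in pregnant TiO2, 7.68 to 8.11 log2 in pregnant PBS, 6.94 to 7.19 log2 in non-pregnant TiO2 and 7.07 to 7.31 log2 in non-pregnant PBS arrays. On average the neutrophil list was highest in pregnant PBS mice, as were Clec4e, Clec4d, Clec7a and Clec4a2. The monocyte list had its highest group mean there too, at 8.67 log2 against 8.55 log2 in pregnant TiO2 mice.

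Monocyte markers were called higher in 5 of 11 cases, against 1.76% of all genes. They were led by Nr4a1 (1.30 ± 0.12 log2), a nuclear receptor, with F13a1 (0.78 ± 0.11 log2) and Treml4 (1.06 ± 0.19 log2). The mean of the monocyte list ran from 8.49 to 8.62 log2 in pregnant TiO2, 8.58 to 8.71 log2 in pregnant PBS, 8.00 to 8.09 log2 in non-pregnant TiO2 and 7.95 to 8.30 log2 in non-pregnant PBS arrays. The 6 markers not called included Csf1r (0.16 ± 0.07 log2) and Cx3cr1 (0.19 ± 0.15 log2), and all 11 lay above 0. Of the macrophage markers 5 of 15 were called higher, against the same share of all genes. Among them were Chil3 (0.69 ± 0.10 log2), Cd68 (0.51 ± 0.08 log2), a lysosomal protein, and Marco (1.47 ± 0.27 log2), a scavenger receptor. The mean of the macrophage list ran from 8.48 to 8.62 log2 in pregnant TiO2, 8.43 to 8.53 log2 in pregnant PBS, 8.12 to 8.20 log2 in non-pregnant TiO2 and 8.01 to 8.32 log2 in non-pregnant PBS arrays. Marco was dim in non-pregnant mice, at 4.32 ± 0.30 log2 after TiO2 and 5.12 ± 1.14 log2 after PBS (SD, n = 4 each). The lowest value of any gene was 4.00 log2. The 10 markers not called included Siglecf (0.00 ± 0.13 log2) and Adgre1 (0.12 ± 0.07 log2), and 14 of the 15 lay above 0.

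None of 10 dendritic cell markers and none of 8 lung epithelial and endothelial markers was called, and their median differences were 0.14 and 0.01 log2. Of the 10 dendritic cell markers, 7 lay above 0, and the macrophage median was 0.20 log2. A contrast between these 2 cell types is thus not shown. In the TiO2 comparisons no gene of these cell lists was called, and the neutrophil median was -0.34 log2 in pregnant and -0.13 log2 in non-pregnant mice. The part of these cell markers in the receptor differences was not tested.

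**Figure D5:**
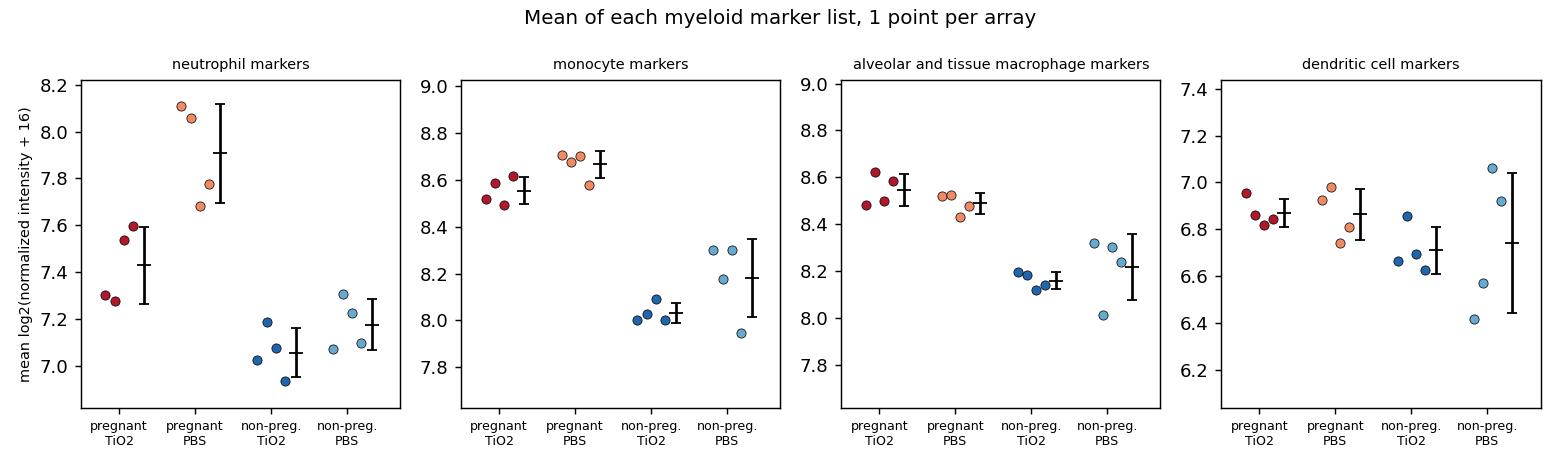
Mean level of each myeloid marker list, as log2(normalized intensity + 16), on each of 16 arrays (1 point each) by group, with the group mean and SD as a bar. The neutrophil and monocyte means are on average highest in pregnant PBS mice, the monocyte and macrophage means are above in both pregnant groups, and the dendritic cell means overlap.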

How the data were processed

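Expression was measured in total lung RNA on 16 arrays, 4 per group. The deposited values are linear intensities, 1 per probe set (45101) and array; the tools GCOS, MAS5 and RMA are listed, per the submitters' processing notes, with versions, order and roles not given in the sources used here. Deposited intensities were not scaled alike: across arrays their trimmed mean, without the outer 2% on either side, was between 137 and 264. The number of arrays limits the precision.

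After 64 control probe sets were left out, values were quantile-normalized, and log2(value + 16) was taken. Gene names are those of the platform annotation, brought up to date with a RefSeq gene table (34754 of 34958 single-symbol probe sets matched). The probe set with the highest mean stood for each of 18193 genes, with no filter on low values. limma 3.58.1 (lmFit, eBayes) in R 4.3.3 fitted 4 group means with 12 residual degrees of freedom and no covariate, p-values were Benjamini-Hochberg adjusted over all genes per comparison, and errors are SE of the fit unless given as SD. The procedure was tested on simulated data.

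Groups came from the gestation and exposure labels. Non-pregnant PBS replicate 2 is called pregnant by one label and non-pregnant by another, and was placed with the non-pregnant mice because the design gives 4 per group and the sample sheet in the labels lists 4 such samples. Replicate numbers are accession order only. The members, the 12 gene lists (137 of 152 entries measured) and the alternatives were chosen with earlier results of these data known. Named were all 6 receptors, every pathway gene called (otherwise the 2 of lowest p), up to 3 genes per cell list of lowest p, and the 3 genes most alike in pattern per receptor (5 for their mean). From cell lists that bear on no result, examples are left out. Alternatives covered normalization, pseudocount (1 and 64), a filter (above the array median on at least 4 arrays), the probe set, an intensity trend, array weights, the arrays in the fit, the conflicting array, 3 arrays of unlike tissue, each array left out and, added after seeing the data, 2 arrays low in Glycam1.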

Additional observations from a re-analysis of the deposited data

How the results depend on the processing

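Of 990 recomputed differences, 893 kept their direction and their side of the threshold, 39 kept the direction and lost the call, 10 gained it and 48 turned direction; no turned value was called before or after, and the cause of each was not tested. The number of the 6 receptors called after TiO2 (2) was 0 on values as deposited, with the dimmer probe sets (genes with a single probe set, Clec7a among them, kept it), with the conflicting array counted as pregnant and without the 2 arrays low in Glycam1 (added after seeing the data). It was 1 with trimmed-mean scaling, a pseudocount of 1, only the arrays of the comparison, or without the 3 arrays of unlike tissue. With 1 array left out it was 0 to 2, and it was 0 without pregnant TiO2 replicate 4 or non-pregnant TiO2 replicate 1, 2 or 3. After PBS (2) it was 1 on values as deposited, 0 with only the arrays of the comparison and with the conflicting array counted as pregnant, 3 with a pseudocount of 64, the filter, the intensity trend and without the 3 arrays, and 2 to 3 with 1 array left out. Over both exposures (3) it was 1 on values as deposited and with the conflicting array counted as pregnant, and 3 to 4 with 1 array left out. It was 0 in every setting for TiO2 in either state and for the difference of the responses. Clec4e was called over both exposures in 27 of 27 settings, Clec4d and Clec7a in 25 of 27. The genes called over all ran from 0 (without the 2 arrays low in Glycam1) to 565 (array weights) around 141 after TiO2, from 0 (conflicting array as pregnant) to 168 (without 3 arrays) around 92 after PBS, and from 32 (conflicting array as pregnant) to 712 (without 3 arrays) around 419 over both.

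Turned values, in log2: as deposited, Clec4n -0.033 for TiO2 in pregnant mice, Clec4d 0.043 and Clec7a 0.036 for TiO2 in non-pregnant mice, and Clec7a -0.25 and Clec5a -0.093 for the difference of the responses. With the dimmer probe set, Clec4a2 -0.030 for pregnancy after PBS, 0.092 for TiO2 in pregnant and -0.059 in non-pregnant mice and 0.15 for the difference of the responses, and Clec4n 0.047 for the last. With array weights, Clec5a 0.081 for pregnancy after TiO2, Clec4n -0.027 for TiO2 in pregnant mice and Clec7a -0.044 for the difference of the responses. With the conflicting array as pregnant, Clec4a2 -0.053 for TiO2 in non-pregnant mice, and Clec4n 0.059, Clec4a2 0.015 and Clec5a -0.000227 for the difference of the responses. Without the 3 arrays, Clec5a 0.0066 for pregnancy after TiO2, Clec4n -0.10 for TiO2 in pregnant mice and Clec7a -0.090 for the difference of the responses. Without the 2 arrays low in Glycam1, Clec5a 0.054 for pregnancy after TiO2, Clec4n -0.011 for TiO2 in non-pregnant mice, and Clec4n 0.056 and Clec7a -0.042 for the difference of the responses. With 1 array left out, Clec5a ran from -0.11 to 0.11 for pregnancy after TiO2, -0.19 to 0.065 after PBS, -0.098 to 0.027 over both, -0.23 to 0.042 for TiO2 in pregnant mice and -0.075 to 0.19 for the difference of the responses; Clec4n from -0.099 to 0.19 for TiO2 in pregnant mice and -0.16 to 0.13, and Clec7a from -0.063 to 0.13, for the difference of the responses; and Clec4a2 from -0.054 to 0.18 for TiO2 in non-pregnant mice. As deposited, the median over all genes was itself shifted, to 0.13 log2 for pregnancy after PBS, 0.12 log2 for TiO2 in non-pregnant mice and -0.19 log2 for the difference of the responses, so those turned values are to be read against it.

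No paired analysis was possible because replicate numbers are accession order only and the labels pair no samples across groups.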
